A study of Mus musculus with 2 samples.

Results

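Mir204 and Mir211 are a pair of related microRNA (miRNA) genes that lie in introns of ion channel genes of the melastatin family, Mir204 in Trpm3 and Mir211 in Trpm1. They were taken from the count tables by their GENCODE M21 gene names, which gives 2 of 2202 miRNA genes. By reads assigned to a gene, Mir204 was among the more abundant miRNA genes of the hippocampus. It differed 3.55-fold between the libraries, whereas Mir211 had 4 reads in replicate 2 and 3 in replicate 1. The small RNA libraries came from the hippocampus of 36-day-old female mice of the hybrid strain B6CASTF1/J (a C57BL/6J and CAST/EiJ cross), with no treatment or engineered allele in the labels. The 2 libraries, made from total RNA and labelled as biological replicates 2 and 1, form 1 group, so no condition was compared. The labels also give separate biosamples but a single donor entry, which leaves unsettled whether these were separate animals, so the spread between the libraries may be technical in part.

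A miRNA is cut from a hairpin transcript, and bases 2 to 8 of the mature strand, the seed, pair with messenger RNAs that are then repressed. The miR-204 and miR-211 family is known from pigment epithelium and other epithelia: miR-204 is high in the choroid plexus, the epithelium that makes cerebrospinal fluid inside the brain ventricles, and in retinal pigment epithelium, and miR-211 is high in melanocytes. Trpm3 encodes a cation channel of choroid plexus and of some neurons, and Trpm1 a channel of retinal bipolar cells and melanocytes.

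The mature arms are shown because they set how far reads of the 2 genes can be told apart. They are from RefSeq (GRCm38.p6), written 5′ to 3′ with the seed in capitals.
miR-204-5p: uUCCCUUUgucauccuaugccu
miR-211-5p: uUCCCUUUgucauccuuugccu
miR-204-3p: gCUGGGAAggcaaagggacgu
miR-211-3p: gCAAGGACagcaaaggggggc
miR-7670-3p: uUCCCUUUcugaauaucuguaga

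The 5p arms of both genes hold the same seed, and over their 22 bases they differ at a single position, A17U, counted from 1 at the 5′ end with the base of miR-204-5p first. They are thus 95.5% identical, and a read of the 5p arm that ends before base 17 has the same 16 bases in both. The 3p arms have different seeds and share at most 8 bases in a row. Among 1738 mature arms of mouse in the RefSeq table, 3 hold this seed, the last of them being miR-7670-3p.

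The hairpins follow, with the 5p arm in capitals. They are identical in RefSeq and in GENCODE M21.
Mir204: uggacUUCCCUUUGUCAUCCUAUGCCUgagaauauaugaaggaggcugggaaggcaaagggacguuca
Mir211: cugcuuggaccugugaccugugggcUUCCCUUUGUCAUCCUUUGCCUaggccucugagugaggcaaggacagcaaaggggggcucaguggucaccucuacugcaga

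The annotated Mir204 hairpin is the shorter at 68 bases, against 106 bases for Mir211. Its GC content was 48.5%, and that of Mir211 57.5%. The predicted minimum free energy was -33.7 kcal/mol with 24 base pairs for Mir204, and -57.6 kcal/mol with 40 base pairs for Mir211. The longest stretch that the hairpins share has 17 bases. No other annotated miRNA hairpin shares more than 12 bases in a row with either. Matches outside annotated hairpins were not searched.

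Mir204 (ENSMUSG00000065507.3) lies at chr19:22750605-22750672 on the plus strand (mm10), 71.4% of the way along Trpm3, a gene of 856365 bp. In the longest coding transcript with an intron around it, Mir204 lies in intron 6 of 24. This intron has 33462 bp, with Mir204 17433 bp after the upstream exon and 15961 bp before the next. Mir211 (ENSMUSG00000065585.1) lies at chr7:64205806-64205911 on the plus strand, 44.8% of the way along Trpm1, a gene of 115941 bp. By the same choice of transcript it also lies in intron 6, here of 26 and 3682 bp long. It is 1212 bp after the upstream exon and 2364 bp before the next. Both are transcribed in the direction of their host. Mir204 lies within 18 of 24 Trpm3 transcripts and Mir211 within 12 of 23 Trpm1 transcripts. No annotated exon of these transcripts overlaps either hairpin. Of all miRNA genes in the count tables that lie inside a Trpm gene, the only other was Mir6416, antisense to Trpm1, with 0 reads in both libraries.

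**Figure D1:**
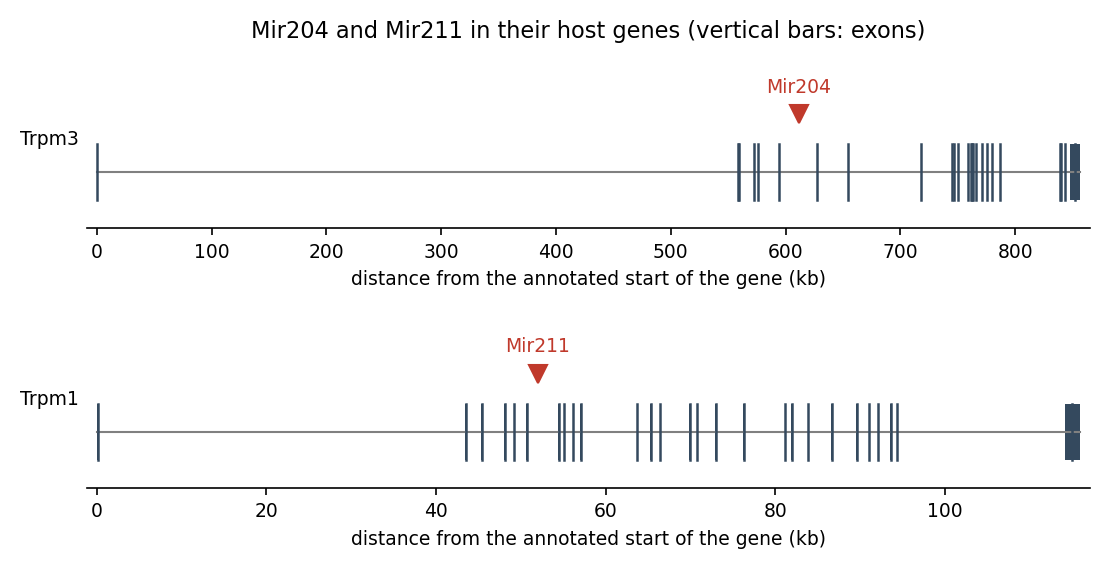
Position of the Mir204 hairpin in Trpm3 (top) and of the Mir211 hairpin in Trpm1 (bottom), in kb from the annotated start of each gene. Vertical bars are exons of the longest coding transcript with an intron around the hairpin, drawn no narrower than a thin line. Each triangle marks the hairpin, which lies in intron 6 of that transcript.

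Counts are reads per hairpin gene in the sense orientation, so 5p and 3p arms were not told apart. Levels are counts per 1000000 sense reads on miRNA genes (CPM). Of these reads there were 3644157 in replicate 2 and 2928141 in replicate 1. For a gene without reads, 3 counts were taken as the upper limit, equal to 0.823 CPM for replicate 2 and 1.02 CPM for replicate 1. Detection required 10 reads or more in both libraries, which 376 genes reached. Reads with several places in the genome, 45.8% of the reads in the table of replicate 2 and 38.9% in that of replicate 1, were counted apart and belong to no gene. Levels of multi-copy genes can thus be too low, and ranks hold only for reads with 1 place. Intervals and limits cover counting error only and treat reads as independent. Reads are not independent molecules, so the intervals can be too narrow. Of a neuron list, 11 of 15 genes were detected, beside 376 of all 2202 miRNA genes. The list of 15 summed to 42647 CPM in replicate 2 and 37557 CPM in replicate 1. Such a list cannot tell the hippocampus from other brain regions. No miRNA on the lists is specific to 1 cell type.

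Mir204 had 7657 reads in replicate 2 and 1735 in replicate 1. These are 2101 CPM (exact Clopper-Pearson 95% interval 2054 to 2149) in replicate 2 and 593 CPM (565 to 621) in replicate 1, with a mean of 1347 ± 1067 CPM (SD, n = 2). The gene stood at rank 68 in replicate 2, rank 125 in replicate 1 and rank 83 in the mean, and the median of detected genes was 152 CPM. The intervals of the libraries lie far apart, and the SD is nearly as large as the mean. Among 969 miRNA genes inside a coding gene on its strand, of which 196 were detected, Mir204 stood at rank 37 in mean level, at rank 31 in replicate 2 and at rank 51 in replicate 1.

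The order of genes around Mir204 was not fixed by these libraries. The 3 genes above it in mean level were Mir872 (1475 ± 111 CPM), Mir383 (1442 ± 250 CPM) and Mir497 (1357 ± 272 CPM), and the 3 below it were Mir874 (1284 ± 396 CPM), Mir322 (1261 ± 300 CPM) and Mir484 (1260 ± 38.7 CPM; SD, n = 2 for each). Each differs from Mir204 by less than the SD of Mir204. In all, 71 genes had a range over the libraries that overlapped the range of Mir204. Of the genes nearest in level, Mir204 had the highest value in replicate 2 and the lowest in replicate 1.

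Mir211 had 4 reads in replicate 2 and 3 in replicate 1. These are 1.10 CPM (exact 95% interval 0.299 to 2.81) in replicate 2 and 1.02 CPM (0.211 to 2.99) in replicate 1, with a mean of 1.06 ± 0.0517 CPM (SD, n = 2). Both counts are under the minimum for detection and close to the limit of 3 counts, and they do not tell a low level from none. In mean level 506 genes stood above Mir211, and 3 other genes (Mir1960, Mir3094 and Mir7026) had the same reads as Mir211 in both libraries. Just above it were Mir5621, Mir7017 and Mir3065, each with 3 reads in replicate 2 and 4 in replicate 1. The ratio of replicate 2 to replicate 1 was 1.07, with an exact 95% interval of 0.181 to 7.31, so a several-fold difference in either direction was not detectable at this depth. Mir7670, the last gene with the seed, had 0 reads in both libraries, with exact 95% upper limits of 1.01 CPM in replicate 2 and 1.26 CPM in replicate 1.

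**Figure D2:**
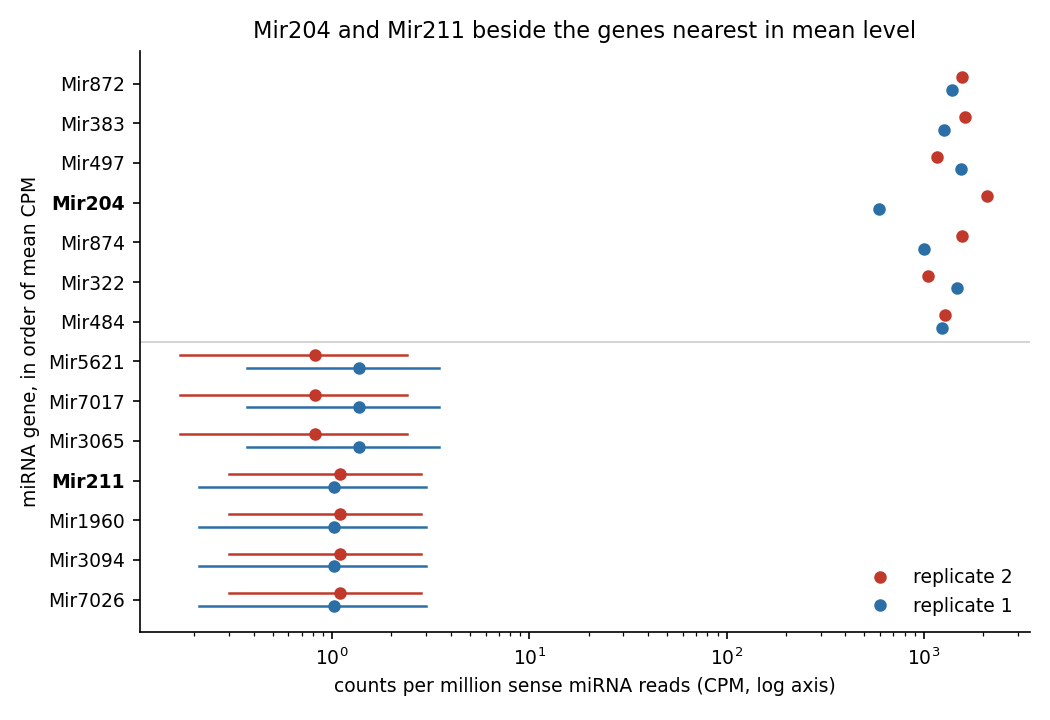
Level in CPM (log axis) of Mir204 and Mir211 and of the 3 genes above and the 3 below each in mean level, in replicates 2 and 1. Points are single libraries and lines the exact 95% interval of counting error, which is narrower than the point in the upper block; Mir204 is at 2101 CPM in replicate 2 and 593 CPM in replicate 1, and Mir211 is near 1 CPM in both.

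Nearly all reads of the family were on Mir204. There were 1914 Mir204 reads for each Mir211 read in replicate 2 (exact 95% interval 747 to 7027) and 578 in replicate 1 (198 to 2807). Mir211 thus held 0.0522% of the reads of the pair in replicate 2 (0.0142% to 0.134%) and 0.173% in replicate 1 (0.0356% to 0.504%). The balance of the genes did not differ detectably between the libraries (odds ratio 3.31, two-sided Fisher's exact test, p = 0.123), and with so few Mir211 reads the intervals overlap widely. This comparison needs no scaling by library totals. The count tables do not hold the bases of the reads, and whether the reads assigned to Mir211 carry the A17U difference was not tested. Together the genes with this seed held 0.210% of the assigned reads in replicate 2 (0.206% to 0.215%) and 0.0594% in replicate 1 (0.0566% to 0.0622%). No antisense read was counted at either gene in either library, and counting without strand gave the same reads.

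Mir204 was higher in replicate 2, by 3.55-fold over replicate 1 (exact 95% interval 3.37 to 3.74), a log2 ratio of 1.82 on the log2(CPM + 1) scale. It was called by an exact binomial test of its reads (two-sided, threshold 0.05 after Benjamini-Hochberg adjustment) among 474 genes with 10 or more reads over both libraries; Mir211 had too few reads to be tested. A call of this kind says little by itself, because 31.6% of tested genes were called higher in replicate 2, 26.4% higher in replicate 1 and 58.0% were called in either direction. The test compares 2 libraries, takes counting error as the only noise and has no replicate on either side. The coefficient of variation between the libraries beyond counting error was 0.382 across genes (edgeR common dispersion), and no exact test over 2 samples can reach 0.05.

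The size of the difference was less common than the call. Of 295 genes averaging 50 or more reads, whose log2 ratios had a median of 0.03 and an SD of 0.84, 8 were at or above Mir204 (2.71%, Mir204 included), and 5 differed by at least as much in the other direction. The genes above Mir204 were Mir182 (58.4-fold), Mir1298 (17.7-fold), Mir183 (13.8-fold), Mir448 (9.54-fold), Mir301 (6.20-fold), Mir1264 (5.43-fold) and Mir34b (3.98-fold). Each of them had fewer reads than Mir204 in both libraries, from 6497 reads for Mir1298 to 119 reads for Mir34b in replicate 2. Closest to the log2 ratio of Mir204, over 2 libraries, were Mir34b (1.87), Mir26a-1 (1.73), Mir214 (1.69), Mir200b (1.58) and Mir375 (1.55), none of which lies in a Trpm gene.

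**Figure D3:**
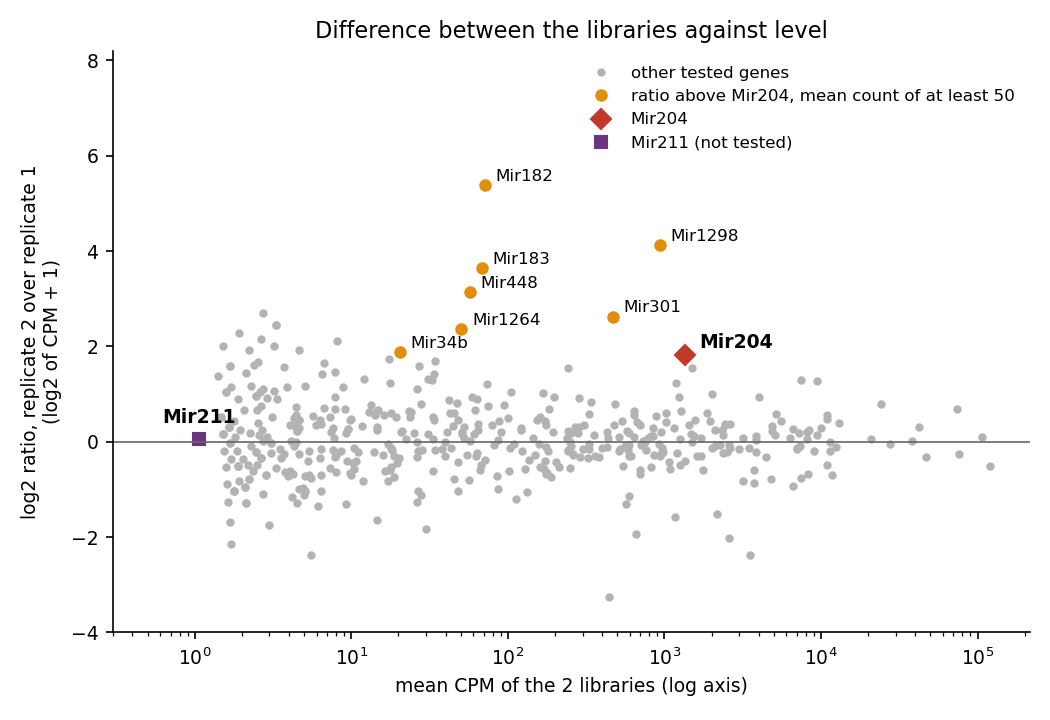
Log2 ratio of replicate 2 over replicate 1 against the mean CPM of the libraries (log axis), 1 point per tested gene. Mir204 (diamond, 1.82) lies above nearly all genes of similar level, the named orange points are the genes averaging 50 or more reads that lie above it, and Mir211 (square, 0.05) had too few reads to be tested.

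Markers of several cell types also differed between the libraries. Beside their counts of called genes stand 31.6% of all tested genes called higher in replicate 2 and 26.4% called higher in replicate 1. The lists were chosen with earlier results of these data known, so counts above these shares are no test of a list. Genes of a list can also share a host gene or transcript and are then not independent. In bulk tissue, fewer cells of a type and less RNA per cell cannot be told apart. Of other miRNAs known from choroid plexus and ciliated cells, 3 of 5 were tested. Mir34b, with 119 reads in replicate 2 and 24 in replicate 1, was called higher in replicate 2, and Mir449a, with 293 reads in replicate 2 and 363 in replicate 1, was called higher in replicate 1. Mir34c, the most abundant of this list, was not called, with 1624 reads in replicate 2 and 1233 in replicate 1 (ratio 1.06, exact 95% interval 0.982 to 1.14). The list summed to 559 CPM in replicate 2 and 554 CPM in replicate 1. Most of this sum was Mir34c, at 446 CPM in replicate 2 and 421 CPM in replicate 1, so it says little of the other members. Mir449b was at 0 in both libraries and Mir449c at 0 in replicate 2, with 2 reads in replicate 1.

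The miRNAs in introns of Htr2c, a serotonin receptor gene that is high in choroid plexus epithelium and also used by neurons, were higher in replicate 2. All 5 were called in that direction, but they share this host gene and are not independent of each other. Their sum was 2003 CPM in replicate 2 and 138 CPM in replicate 1 (ratio 14.6). Mir1298 led with 1783 CPM in replicate 2 and 101 CPM in replicate 1, followed by Mir448 (104 CPM in replicate 2 and 10.9 CPM in replicate 1) and Mir1264 (85.3 CPM in replicate 2 and 15.7 CPM in replicate 1). Mir1912 had 20 reads in replicate 2 and 0 in replicate 1. Mir204 was called in this direction too, as were 31.6% of all tested genes, and a link to this list was not tested.

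Sensory and epithelial miRNAs summed to 366 CPM in replicate 2 and 58.7 CPM in replicate 1 (ratio 6.24). Of 7 tested genes of this list of 8, 5 were called higher in replicate 2 and 0 higher in replicate 1, with Mir182 (140 CPM in replicate 2 and 2.39 CPM in replicate 1), Mir183 (127 CPM in replicate 2 and 9.22 CPM in replicate 1) and Mir200b (40.9 CPM in replicate 2 and 13.0 CPM in replicate 1) highest in the mean. In replicate 1 alone Mir429 was the highest, at 18.8 CPM. Mir200a, Mir200b and Mir429 share the host gene Ttll10 and are likewise not independent of each other. Mir96, with 5 reads in replicate 2, was at 0 in replicate 1.

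Of 12 tested neuron miRNAs, 6 were called with more reads in replicate 2 and 3 with more in replicate 1. Highest in the mean were Mir132 (10636 CPM in replicate 2 and 12153 CPM in replicate 1), Mir137 (12631 CPM in replicate 2 and 9112 CPM in replicate 1) and Mir128-1 (10622 CPM in replicate 2 and 4326 CPM in replicate 1); in replicate 1 alone Mir138-1, at 6059 CPM, stood above Mir128-1. Mir124a-2 was at 0 in replicate 2, but it is a multi-copy gene whose reads have several places and were counted apart, so this is no level in the tissue. The other Mir124a genes and the Mir9 genes of this list are multi-copy too, so their levels and the list sums can be too low. All 7 astrocyte miRNAs were called higher in replicate 1, against 26.4% of all tested genes, with sums of 12678 CPM in replicate 2 and 18266 CPM in replicate 1. Mir29a (8396 CPM in replicate 2 and 9631 CPM in replicate 1), Mir22 (2645 CPM in replicate 2 and 4832 CPM in replicate 1) and Mir29c (581 CPM in replicate 2 and 1747 CPM in replicate 1) were the highest of them in the mean. In replicate 2 alone Mir21a, at 872 CPM, stood above Mir29c. The ratio of replicate 1 to replicate 2 ran from 1.15 for Mir29a to 9.70 for Mir31, which had 82.6 CPM in replicate 2 and 801 CPM in replicate 1. All 3 erythroid miRNAs were called higher in replicate 1 as well, at sums of 340 CPM in replicate 2 and 1176 CPM in replicate 1, led by Mir451a (270 CPM in replicate 2 and 1039 CPM in replicate 1) and Mir144 (57.6 CPM in replicate 2 and 115 CPM in replicate 1). Mir486, a multi-copy gene whose level can be too low, had 12.1 CPM in replicate 2 and 22.2 CPM in replicate 1.

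The median log2 ratio was 0.08 over the tested genes of the choroid plexus and ciliated list, 2.70 for the Htr2c introns (2.37 with the 0 reads of Mir1912 in replicate 1 set to 3 counts), 1.58 for the sensory and epithelial list, 0.22 for neurons, -0.87 for astrocytes and -0.99 for the erythroid list, beside 0.04 over all tested genes. The part of these lists in the difference of Mir204 was not tested.

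**Figure D4:**
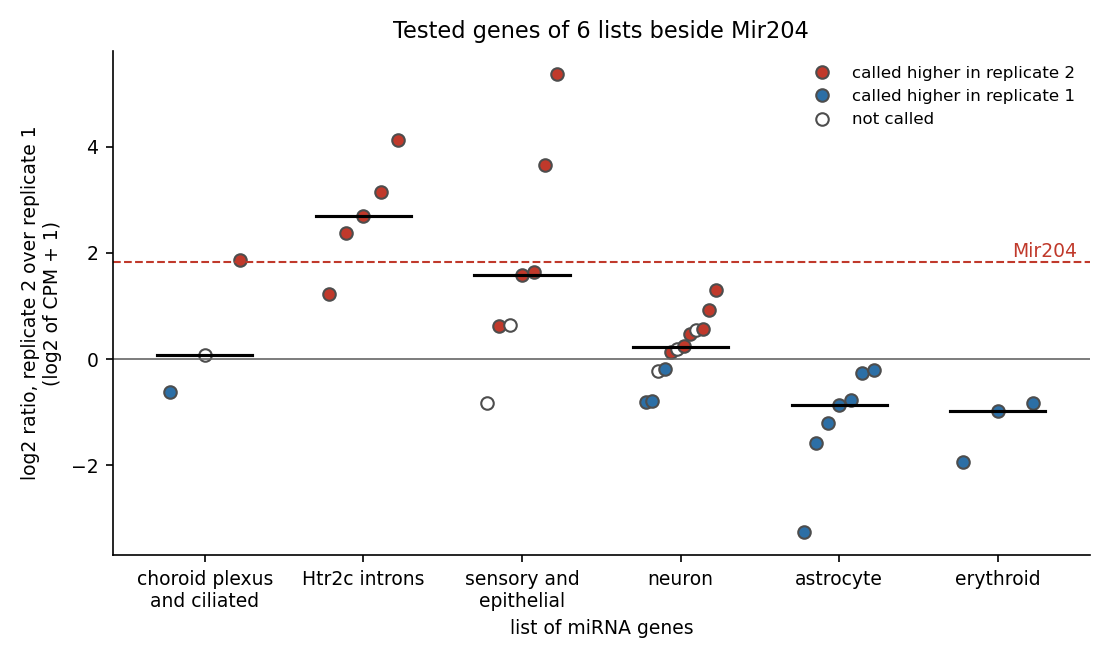
Log2 ratio of replicate 2 over replicate 1 of the tested genes of 6 lists. Points are genes, filled where called in either direction, short lines are list medians (that of the Htr2c introns is Mir1912, with 0 reads in replicate 1, so that the added 1 CPM sets its place) and the dashed line is Mir204 (1.82); all 5 Htr2c intron genes are called higher in replicate 2, and all 7 astrocyte and 3 erythroid genes higher in replicate 1.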

How the data were processed

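The authors deposited raw counts of reads per miRNA gene for each library, in 3 columns without names. The notes deposited with the counts name the assembly mm10 and the annotation GENCODE M21; no source used here gives the aligner. The first column was taken as unstranded, the second as sense and the third as antisense. Sense counts were used, because reads on no gene were far fewer in that column than in the antisense one. The 4 rows that name no gene, 65.3% of reads in replicate 2 and 69.5% in replicate 1, were left out of totals and tests.

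All 2202 identifiers matched GENCODE M21. Positions come from it and sequences from RefSeq. Hairpins were folded with RNAfold (2.7.2). CPM used sense totals, and 1 CPM was added before taking log2. The exact binomial test took the share of the totals as its null value, for genes with 10 or more reads over both libraries. Benjamini-Hochberg adjustment followed. The test was tried on simulated counts with counting noise alone, so false calls from other variation between libraries were not tried. The libraries were no duplicate deposit (chi-square over genes 390 times its degrees of freedom). edgeR (4.0.16) gave the dispersion, from genes averaging 10 or more reads, and TMM factors; DESeq2 (1.42.0) gave size factors.

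The members and the 6 lists were chosen with earlier results of these data known. Besides the members, the text names genes with their seed or inside Trpm1 or Trpm3, the 3 most abundant of each list, the 3 genes above and below in mean CPM and the 5 closest in log2 ratio among genes averaging 50 or more reads (not given for Mir211, whose ratio is too uncertain). The genes above Mir204 in ratio and further list members were named after their values were seen.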

Additional observations from a re-analysis of the deposited data

How the results depend on the processing

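The difference of Mir204 between the libraries kept its direction under 7 alternatives (counts without strand, other totals, TMM and DESeq2 scaling, totals without multi-copy genes, another pseudocount), with log2 ratios from 1.75 to 2.01. Taking all reads of the table as total moved log2 ratios before the pseudocount by 0.19, and the other scalings moved them by at most 0.07 in size. The mean level of Mir204 rests on both libraries: it was 2101 CPM without replicate 1 and 593 CPM without replicate 2, and its rank ranged over 68 to 125. Mir211, at 1.06 CPM, was at 1.15 CPM counted without strand, 0.347 per 1000000 of all reads and 1.21 CPM without the most abundant gene in the total. Its rank of 507 became 480 without strand and 492 to 493 in single libraries. The ratio of Mir204 to Mir211 reads was 1914 without replicate 1 and 578 without replicate 2. Under TMM scaling the log2 ratio of the summed levels was 0.15 for the neuron list and -0.56 for the astrocyte list, by the shift of the scaling. Without strand it was -1.01 for the erythroid list (-1.79 with strand), since Mir451a and Mir486 had 0 reads in that column and only Mir144 was left. That of the choroid plexus and ciliated list, 0.01, was -0.02 under TMM. Counts of called genes stayed within 1.5 times of 275 under 6 alternatives (214 to 274), with 135 higher in replicate 2 and 133 higher in replicate 1 under TMM, and 126 higher in replicate 2 and 142 higher in replicate 1 without the most abundant gene. No paired analysis was possible because there was 1 group. Depth limits every statement on Mir211, which rests on 7 reads.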
